A study of Mus musculus with 136 samples.

Results

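The endocytic receptor complex of the yolk sac was taken as 4 genes, named by symbol: Lrp2 (megalin), Cubn (cubilin), Amn (amnionless) and Dab2 (disabled-2). All 4 were found among the 47643 genes of the count table, and every result below is for these 4 unless another gene is named. RNA came from 66 mouse concepti of the NOD (non-obese diabetic) strain at embryonic day 8.5, with the embryo and its visceral yolk sac as separate libraries, 132 in all from 22 litters. Diabetes arises in this strain without treatment, and diabetic and normal dams were both NOD, with no allele or agent added. At 5–6 somite pairs, normal dams contributed 17 concepti (10 litters) and diabetic dams 17 (9 litters). At 7–9 somite pairs, normal dams contributed 16 (7 litters) and diabetic dams 16 (6 litters), of which 7 were littermates from dam D24M15. Maternal blood glucose in the labels was 105–164 mg/dl for normal and 423–595 mg/dl for diabetic dams, with 1 diabetic litter given only as above the limit of the meter. The age of the dams was not analysed here.

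Megalin and cubilin are very large receptors on the apical surface of absorptive epithelia, best known from the proximal tubule of the kidney and from the visceral endoderm, the outer epithelial layer of the yolk sac. Cubilin has no membrane-spanning part of its own and reaches the surface bound to amnionless, a small membrane protein, while disabled-2 is the adaptor that ties the tail of megalin to the clathrin coat. Together they take up maternal proteins, lipoproteins and vitamin carriers, which are broken down in lysosomes to feed the embryo before a placental circulation exists. Lrp2 is also expressed in the embryo itself, on the apical surface of the neural tube.

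On build GRCm38, GENCODE M21 places the protein-coding genes Lrp2 (ENSMUSG00000027070) at chr2:69424340-69586065 on the minus strand and Cubn (ENSMUSG00000026726) at chr2:13276338-13491813 on the minus strand. Amn (ENSMUSG00000021278) is at chr12:111271095-111276426 and Dab2 (ENSMUSG00000022150) at chr15:6299788-6440712, both on the plus strand. Genes on the opposite strand overlap Cubn (Gm13270) and Dab2 (Gm16311 and Gm18888), and whether the authors counted by strand is not given in the sources used here. The 250 bases before the RefSeq starts of Lrp2 and Cubn are shown because the levels of these 2 receptors moved together in some groups of yolk sacs, while their upstream sequences differ in base composition. A relation between these sequences and the levels was not tested. Both are read 5′ to 3′ on the minus strand of GRCm38.p6, at chr2:69586030-69586279 for Lrp2 and chr2:13491877-13492126 for Cubn, and capitals mark the dinucleotide CG.
Lrp2: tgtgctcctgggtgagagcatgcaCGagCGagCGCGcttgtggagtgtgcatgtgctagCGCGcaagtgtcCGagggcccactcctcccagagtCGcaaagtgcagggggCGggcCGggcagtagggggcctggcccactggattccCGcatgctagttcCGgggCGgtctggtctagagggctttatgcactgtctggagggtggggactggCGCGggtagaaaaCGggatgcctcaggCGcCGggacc
Cubn: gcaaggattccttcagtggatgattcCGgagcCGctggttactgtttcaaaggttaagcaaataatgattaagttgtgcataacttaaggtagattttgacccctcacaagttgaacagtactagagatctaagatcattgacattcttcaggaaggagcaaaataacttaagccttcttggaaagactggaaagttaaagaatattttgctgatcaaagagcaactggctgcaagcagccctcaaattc

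The Lrp2 sequence was 66.4% G and C with 18 CG dinucleotides, and the Cubn sequence was 39.6% G and C with 2. Among 32841 mouse promoters of the same length, with medians of 52.4% and 6, 85.2% held fewer G and C than the sequence of Lrp2 and 11% fewer than that of Cubn. Amn, at chr12:111270846-111271095, resembled Lrp2, with 61.2% G and C and 11 CG dinucleotides. Dab2 has 2 listed starts of unlike make, chr15:6299539-6299788 with 36.8% and 2, and chr15:6386498-6386747 with 60.0% and 17. Letters typical of HNF1 sites, GTTAAT, searched on both strands, are held by 6.43% of all promoters, and were found in the second Dab2 window alone. Letters of a GATA site, TGATAA, are held by 7.94% and were found in the first Dab2 window alone. Also searched were letters of an HNF4 site, CAAAGTCCA (held by 0.384%), of another GATA site, AGATAA (9.99%), and of a TATA box, TATAAA (12.4%). None of these was found in any window.

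Library totals ran from 1017901 to 5658850 counts of molecules with a median of 2302819. Every member had at least 120 counts in every yolk sac, whereas Cubn and Amn had as few as 1 count in an embryo. The tissue labels were borne out by markers: the summed level of 8 visceral endoderm markers, none of them a member, was 9274–51973 normalized counts in yolk sacs and 92.5–3189 in embryos, and that of 5 neuroepithelium markers 0–97.2 in yolk sacs and 660.3–2012 in embryos. Summed levels of 3 decidua markers reached 376 and 763 in yolk sacs of diabetic pregnancies at 5–6 and 7–9 somite pairs (medians 10.6 and 7.59). In yolk sacs of normal pregnancies they reached 15.9 and 36.1 (medians 2.06 and 3.83). Over all yolk sacs Prl8a2 alone reached 719, against 14.2 for Pgr and 29.9 for Htra3, so the high sums came mostly from Prl8a2. The part of maternal tissue in the comparisons was not tested. No library went against its own sex label, but in 2 concepti (D28M27C, diabetic, 5–6 somite pairs, and N28M07E, normal, 7–9) embryo and yolk sac differed in sex by labels and data alike. Leaving both out changed no call on a member. Littermates share a dam and the tests took concepti as independent, so p-values measure the spread between concepti.

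In yolk sac, Dab2 was the most abundant of the 4. It ranked 36 there among the 10272 genes whose mean reached 10 normalized counts, Amn 333, Cubn 427 and Lrp2 523. A normalized count is the count of molecules divided by a size factor for the library, and since 3′ counting takes 1 tag per transcript, levels were compared between genes without dividing by length. Dab2 exceeded the next member by 1.81 to 2.09 on the log2 scale in all 4 yolk sac groups, in every conceptus (exact paired permutation test over all sign assignments, highest adjusted p over 24 tests, p = 5.23e-05). By litter means this call was lost in diabetic pregnancies at 7–9 somite pairs, where Dab2 was higher in 6 of 6 litters (exact permutation test, adjusted p = 0.05). Below it the order was not the same in every group. Cubn and Lrp2 did not differ beyond their spread at 5–6 somite pairs (log2 difference 0.03 in normal and in diabetic pregnancies). At 7–9 somite pairs Cubn did not differ from Amn (0.10 and 0.11), and it exceeded Lrp2 in 15 of 16 yolk sacs of diabetic pregnancies (0.39, exact permutation test, adjusted p = 0.0131), although by litter means that call was lost (0.21, adjusted p = 0.276 with an exact permutation test over 6 litters).

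**Figure D1:**
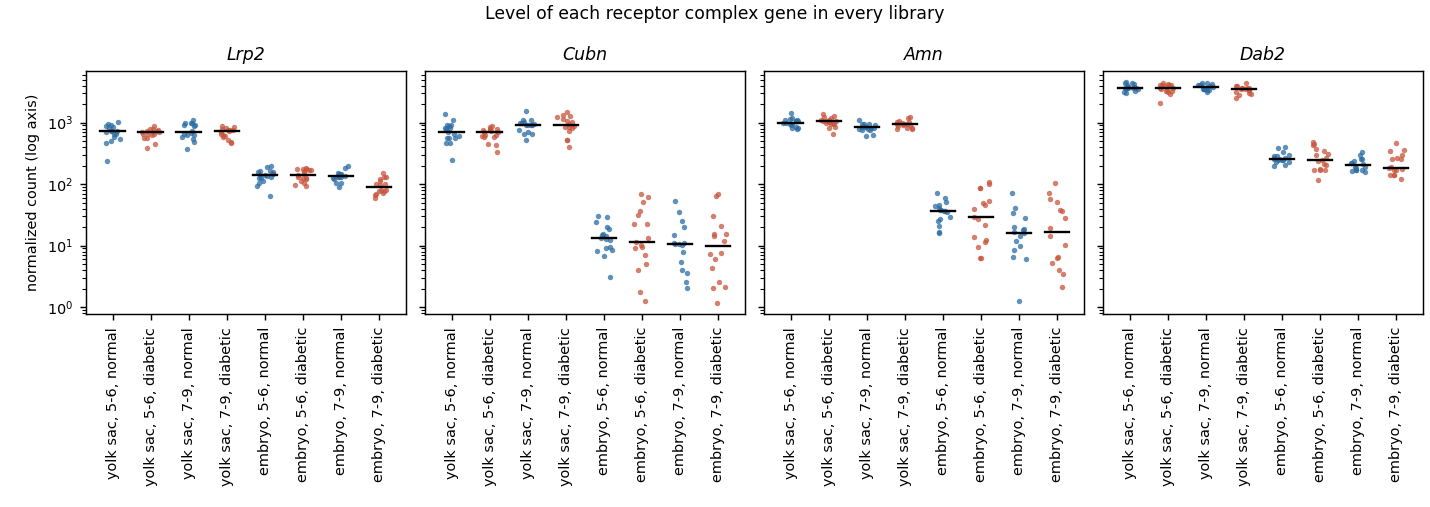
Normalized counts (log axis) of Lrp2, Cubn, Amn and Dab2 in all 132 libraries, a panel for each gene and a column for each tissue, stage and maternal condition, with 1 point per library and bars at the group medians. In each gene the embryo columns lie below the yolk sac columns, most widely for Cubn, whose embryo medians are 9.74–13.2 against 693–934 in yolk sac.

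Lrp2 in yolk sacs of normal pregnancies lay between 239 and 1015 normalized counts (median 725) at 5–6 somite pairs and between 368 and 1096 (median 696) at 7–9. In diabetic pregnancies the yolk sacs lay between 393 and 876 (median 693) and between 476 and 887 (median 724). The 4 ranges overlapped, and their medians lay between 693 and 725. In embryos of normal pregnancies Lrp2 lay between 64.5 and 199.6 (median 140.0) and between 89.7 and 197 (median 133) at these stages, and in embryos of diabetic pregnancies between 93.2 and 181 (median 140.1) and between 58.7 and 152 (median 89.9). No embryo reached the lowest yolk sac of its own stage and maternal condition, although the margin was small at 5–6 somite pairs of normal pregnancies. The edgeR log2 difference of yolk sac from embryo was 2.38 and 2.47 in normal and 2.32 and 2.84 in diabetic pregnancies at 5–6 and 7–9 somite pairs, which is 4.98- to 7.14-fold. Of the 4 members Lrp2 had the least difference between tissues, with 13.9–21.2% of the yolk sac mean left in embryos.

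Cubn lay between 244 and 1383 normalized counts (median 693) in yolk sacs of normal pregnancies at 5–6 somite pairs and between 529 and 1528 (median 934) at 7–9. Under diabetes it lay between 333 and 890.4 (median 695) and between 397 and 1477 (median 919.8). The later groups reached higher, but all 4 ranges overlapped. In embryos the medians were 13.2 and 10.8 in normal and 11.6 and 9.74 in diabetic pregnancies, with extremes of 1.16 and 70.0 over the 4 groups. No embryo came near a yolk sac, and a few embryos stood several times above their group's median. The difference between tissues was the largest of the members, 5.64 and 5.94 in normal and 4.96 and 5.77 in diabetic pregnancies on the log2 scale, or 31.2- to 61.4-fold.

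Amn lay between 790.1 and 1412 normalized counts (median 978) in yolk sacs of normal pregnancies at 5–6 somite pairs and between 604 and 1115 (median 841) at 7–9, and in those of diabetic pregnancies between 658 and 1399 (median 1052) and between 788 and 1245 (median 951). The later normal group was the lowest, with ranges that overlapped. Embryo medians were 36.2 and 16.3 in normal and 29.7 and 16.7 in diabetic pregnancies, with extremes of 1.27 and 108. The tissues again did not overlap, and the log2 difference was 4.80 and 5.31 in normal and 4.68 and 5.09 in diabetic pregnancies (25.6- to 39.6-fold).

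Dab2 lay between 3027 and 4582 normalized counts (median 3707) in yolk sacs of normal pregnancies at 5–6 somite pairs, between 3205 and 4399 (median 3736) at 7–9, and in diabetic pregnancies between 2081 and 4350.2 (median 3726) and between 2553 and 4476 (median 3538). The 4 medians lay between 3538 and 3736, and the ranges overlapped. In embryos the medians were 261 and 205 in normal and 250.4 and 184 in diabetic pregnancies, with extremes of 116 and 488. Every embryo stood far below every yolk sac, by 3.84 and 4.14 in normal and 3.81 and 3.92 in diabetic pregnancies on the log2 scale (14.02- to 17.7-fold).

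Yolk sac exceeded embryo for 4 of 4 members in each of the 4 stage and condition groups (edgeR quasi-likelihood test with Benjamini-Hochberg adjustment over all genes tested, highest adjusted p = 2.73e-16). The same call was made for 35.1% of all genes tested in normal and 36.2% in diabetic pregnancies at 5–6 somite pairs, and for 35.7% and 35.1% at 7–9, out of 70.6%, 70.9%, 75.2% and 72.8% called in either direction. In whole tissues, fewer cells of a type and less RNA per cell cannot be told apart. The members differed among themselves in how far the tissues lay apart. Over concepti, 23 of 24 differences between 2 members in the log2 ratio of yolk sac to embryo passed an exact paired permutation test with adjustment over the 24, and the one that did not was Amn against Cubn in normal pregnancies at 7–9 somite pairs (-0.61, adjusted p = 0.0619). Other genes of the uptake pathway, from lists chosen by role, were higher in yolk sac in 37–39 of the 52–53 tested and lower in 5–7. Of 19 adaptors and coat proteins, 12–13 were higher and 1–3 lower in each group, and examples of the former were Myo6, the motor that moves coated vesicles inward (3.59 to 3.70), and Cltc, the clathrin heavy chain (1.31 and 1.46 at 7–9 somite pairs). Lrpap1, the chaperone that keeps megalin free of ligand during its export, was higher by 2.05 to 2.73, and Pdzk1, a scaffold of the apical membrane, by 5.31 to 6.05. Of 6 other lipoprotein receptor genes tested beside Lrp2, only 1 or 2 were higher in yolk sac and 2 to 4 were lower.

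In embryos the order of the 4 levels was Dab2, Lrp2, Amn and Cubn in each of the 4 groups. Each neighbour differed from the next over concepti (exact paired permutation test), the weakest being Amn and Cubn in normal pregnancies at 7–9 somite pairs (log2 difference 0.51, adjusted p = 0.0480). By litter means this call and all 3 in diabetic pregnancies at 7–9 somite pairs were lost (adjusted exact permutation p = 0.0703 for the former and 0.05 to 0.125 over 6 litters for the latter). The variation of 3 members among embryos followed that of the visceral endoderm markers. Pearson's r of Amn with the mean log2 level of the 8 markers was 0.86 and 0.93 in normal and 0.94 and 0.96 in diabetic pregnancies at 5–6 and 7–9 somite pairs. For Dab2 it was 0.63 and 0.70 in normal and 0.86 and 0.95 in diabetic pregnancies, and for Cubn 0.51 and 0.84 and 0.97 and 0.95. Of these 12 relations, 11 passed the permutation test with adjustment over the 32 relations computed, and Cubn in normal pregnancies at 5–6 somite pairs did not (adjusted p = 0.0765). Spearman's rho and r without the 2 farthest embryos were 0.59 to 0.97 and 0.55 to 0.96 over the 12, and rho passed in all 12. For Lrp2 r was 0.03 and -0.19 in normal and 0.38 and -0.12 in diabetic pregnancies, with none past the threshold. Without the 2 farthest embryos r for Lrp2 became 0.13 and -0.02 in normal and 0.23 and -0.55 in diabetic pregnancies. In yolk sacs, where these markers varied from library to library too, r passed in 3 of 16 relations, namely Dab2 in normal (-0.64) and in diabetic pregnancies (0.69) and Amn in diabetic pregnancies (0.63), all at 5–6 somite pairs and with Dab2 in opposite directions. By rho 2 of the 16 passed, Dab2 in normal pregnancies at 5–6 (-0.57) and Lrp2 in normal pregnancies at 7–9 (-0.61).

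**Figure D2:**
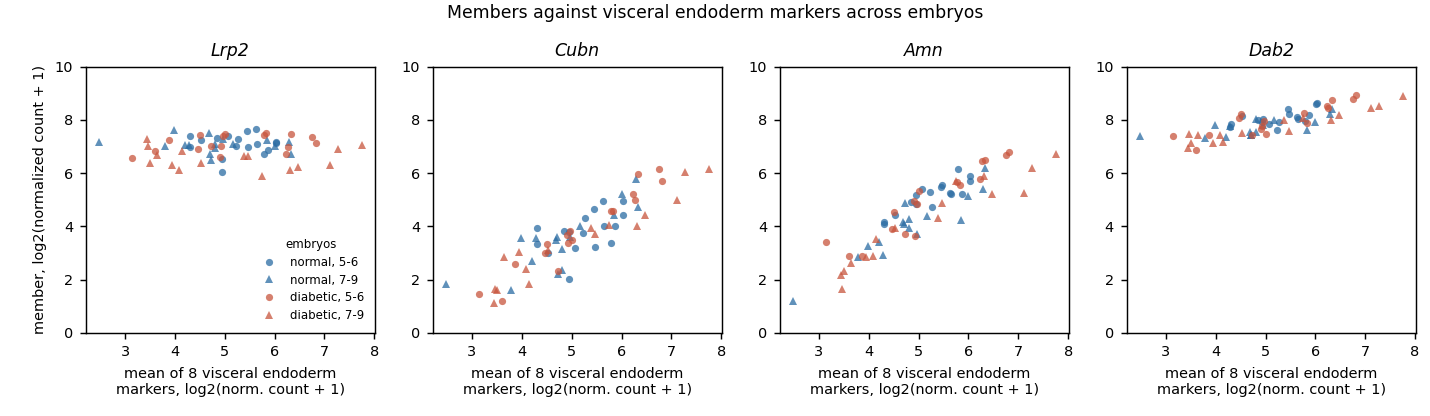
Each panel plots 1 member's log2(normalized count + 1) in the 66 embryos against the mean log2 level of 8 visceral endoderm markers, coloured by maternal condition with circles for 5–6 and triangles for 7–9 somite pairs. Cubn, Amn and Dab2 climb with the markers, while no relation of Lrp2 with them passed the threshold in any group.

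One embryo library had a duplicate that bears on this. The embryo D24M15G, of a diabetic pregnancy at 7–9 somite pairs, had the highest sum of visceral endoderm markers of all 66 embryos, 3189 normalized counts, and a second library labelled as its batch control had 965. Cubn was counted 83 times in the original and 20 times in the duplicate, at totals of 2534218 and 2626018. Amn fell from 122 to 59 and Dab2 from 562 to 315, while Lrp2 had 155 and 171. The 3 other duplicate pairs differed by at most 0.32 on the log2 scale for any member. With the duplicate in place of the original, the difference of diabetic from normal embryos at 7–9 somite pairs went from 0.21 to -0.14 for Cubn and from 0.43 to 0.22 for Amn, and neither was called in either fit.

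From 5–6 to 7–9 somite pairs 1 member was called in yolk sac under each maternal condition, Amn in normal and Cubn in diabetic pregnancies. In normal pregnancies Amn fell by 0.28 on the log2 scale (SE 0.08, edgeR adjusted p = 0.0314), from a mean of 1016 ± 159 (SD, n = 17) to 839 ± 123 (SD, n = 16) normalized counts. By somite number its means were 969 (5 pairs, n = 11), 1102 (6, n = 6), 876 (7, n = 7), 812 (8, n = 4) and 810 (9, n = 5). The other 3 members gave 0.32 (Cubn, adjusted p = 0.191), 0.09 (Lrp2) and -0.01 (Dab2) and were not called. A call was made for 7.84% of all genes tested in that comparison, 3.02% as lowered and 4.82% as raised. The call on Amn was lost without any one of the litters N24M21, N24M29, N28M05 or N28M22, with differences from -0.27 to -0.22.

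In diabetic pregnancies Cubn rose by 0.50 (SE 0.14, edgeR adjusted p = 0.00704), from 663 ± 151 (SD, n = 17) to 937 ± 306 (SD, n = 16). Amn (-0.12), Lrp2 (0.03) and Dab2 (-0.08) were not called. A call was made for 33.7% of all genes tested here, 18% as raised. The rise of Cubn rested on 1 litter, since without D24M15 the difference was 0.18 with an adjusted p of 0.394. Without litter D28M36, Amn was also called lower, by 0.19 (adjusted p = 0.0482). The stage effects on the 4 members were not shown to differ between maternal conditions in yolk sac, where a test of the interaction called 0 of 10857 genes (634 at an unadjusted p under 0.05, and 0 with limma voom and the litter as a random block).

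**Figure D3:**
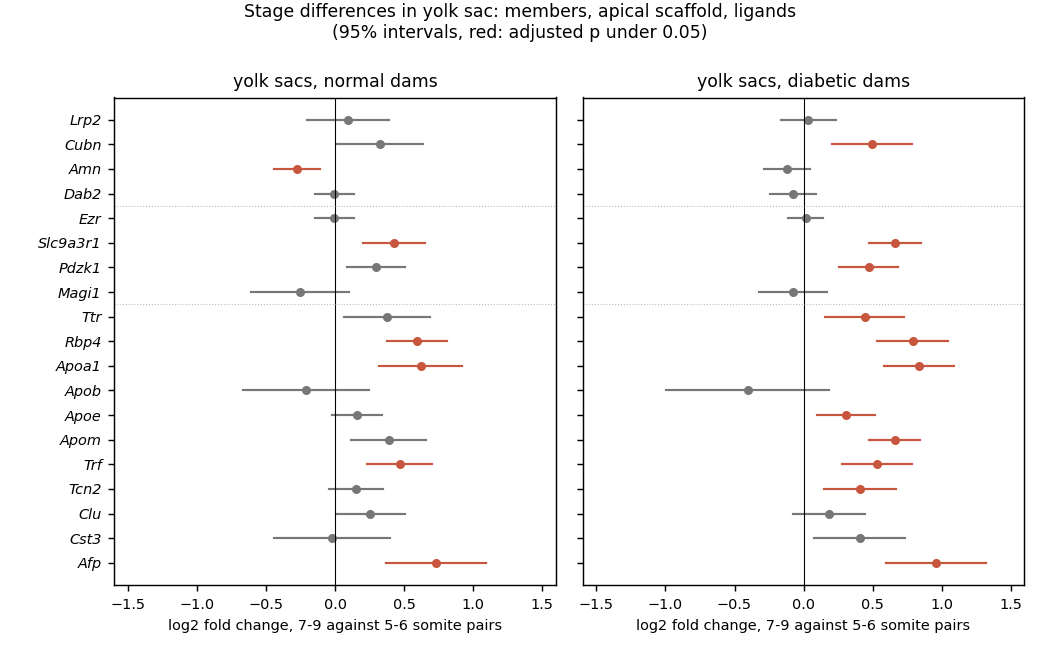
Log2 differences of 7–9 from 5–6 somite pairs in yolk sac with 95% intervals, for the members, 4 apical scaffold genes and 11 ligands, separately for normal and diabetic dams, with red marking an edgeR adjusted p under 0.05. Amn is the sole member in red for normal dams (-0.28) and Cubn for diabetic dams (0.50), while 4 and 8 of the ligands are red, all to the right of 0.

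Several ligands of the receptors, most of them secreted by the visceral endoderm, rose over the same stages. Of 11 tested in yolk sac, 4 were raised in normal and 8 in diabetic pregnancies, with 0 lowered, and 6 of the 11 are also on the list of visceral endoderm markers. Afp, the fetal serum protein, rose by 0.73 and 0.96, Rbp4, the retinol carrier, by 0.59 and 0.79, and Ttr, the thyroxine carrier, by 0.44 in diabetic pregnancies. The chaperone Lrpap1 rose by 0.40 (adjusted p = 0.0175) in normal and by 0.55 (adjusted p = 0.000258) in diabetic pregnancies, and the apical scaffold gene Slc9a3r1 by 0.42 and 0.66, all in edgeR. Of the 8 visceral endoderm markers, 5 rose in normal (median difference 0.52) and 7 in diabetic pregnancies (median 0.74). Of 5 primitive erythroid markers, 3 rose in normal and 5 in diabetic pregnancies. Plac1, the sole trophoblast marker of 5 with enough counts to test, fell by 0.91 and 1.37. The part of these other genes in the stage differences of Amn and Cubn was not tested. Of the 58 listed pathway genes other than the members, 9 rose and 0 fell of 50 tested in normal yolk sacs, and 20 rose and 6 fell of 51 in diabetic ones.

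In embryos of normal pregnancies Amn fell by 0.83 (SE 0.27, edgeR adjusted p = 0.0312) and Dab2 by 0.34 (SE 0.10, adjusted p = 0.0229) between the stages, where 15.1% of all genes tested were called, 8.97% as lowered. Visceral endoderm markers in these embryos had a median difference of -0.25, with 0 of 6 called. Other markers were called in them, 3 of 3 primitive erythroid markers as raised (median 3.33) and 2 of 4 gut endoderm markers as lowered (median -0.38). The call on Amn held without 3 of the 10 normal litters taken out in turn, and was lost without N24M29, N28M03, N28M05, N28M06, N28M22, N28M25 or N28M30, at -0.81 to -0.74. That on Dab2 was lost without N28M05, N28M06 or N28M30, at -0.34 to -0.26. In embryos of diabetic pregnancies Lrp2 fell by 0.54 (SE 0.12, edgeR adjusted p = 0.00118), from 141 ± 30.5 (SD, n = 17) to 95.6 ± 26.9 (SD, n = 16) normalized counts, and 29.2% of all genes tested were called, 14% as lowered. This call held without each of the 12 diabetic litters in turn, at -0.75 to -0.48. By somite number Lrp2 in these embryos averaged 153 (5 pairs, n = 13) and 105 (6, n = 4). The later means were 78.4 (7, n = 4), 103 (8, n = 9) and 97.6 (9, n = 3), so embryos with 6 pairs already stood near the later level. In the same embryos 3 of 3 primitive erythroid markers were raised (median 5.04), 2 of 4 gut endoderm markers were lowered (median -0.48), and of 5 neuroepithelium markers 1 was raised and 1 lowered (median 0.11). The part of these markers in the stage differences of Amn, Dab2 and Lrp2 was not tested. In embryos of normal pregnancies Lrp2 stood at 139 ± 34.0 and 136 ± 26.95, with means by somite number from 125 (6 pairs) to 146 (5 pairs). The difference between these stage effects was itself past the threshold (interaction -0.52, SE 0.17, edgeR adjusted p = 0.0433, with 8.7% of all genes tested called). Leaving out litters and summing counts per litter were not run for interactions. Within diabetic pregnancies, the stage effect on Lrp2 in yolk sac exceeded that in embryo by 0.58 (SE 0.16, adjusted p = 0.0342, with 1.81% of genes called), whereas the same test in normal pregnancies called no member and 0.0435% of genes.

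The comparison of diabetic with normal pregnancies asked whether maternal diabetes was accompanied by other levels of the uptake machinery. In yolk sac at 5–6 somite pairs, Lrp2 differed by -0.07 (95% interval -0.32 to 0.19), Cubn by -0.14 (-0.45 to 0.17), Amn by 0.04 (-0.13 to 0.21) and Dab2 by -0.06 (-0.22 to 0.10) on the log2 scale. None of the members was called, and edgeR called 0% of the 10250 genes tested (863 at an unadjusted p under 0.05, and 1 gene by DESeq2). The intervals leave room for differences of up to these bounds and do not show that the groups are alike. In yolk sac at 7–9 somite pairs Lrp2 differed by -0.13 (-0.37 to 0.12), Cubn by 0.03 (-0.26 to 0.32) and Dab2 by -0.13 (-0.28 to 0.03). Again no member was called, with 0.0194% of all genes tested called by edgeR (1122 at an unadjusted p under 0.05, and 38 genes by DESeq2).

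Amn came nearest to a difference in yolk sac. At 7–9 somite pairs 12 of 16 yolk sacs of diabetic pregnancies lay above the median of the normal ones (963 ± 134 against 839 ± 123 normalized counts, SD, n = 16 each), with overlapping ranges and a log2 difference of 0.20 (0.04 to 0.36, edgeR adjusted p = 0.382). By litter means the difference was 0.21, all 6 diabetic litters were above the median of the normal litters, and the exact permutation test over all 1716 splits gave p = 0.00583, unadjusted for the 16 such tests made. Dab2 was below the normal median in 13 of the 16 yolk sacs, and its litter means differed by -0.14 (exact p = 0.151). Other genes of the pathway in yolk sac gave 0 calls of 51 tested at either stage.

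**Figure D4:**
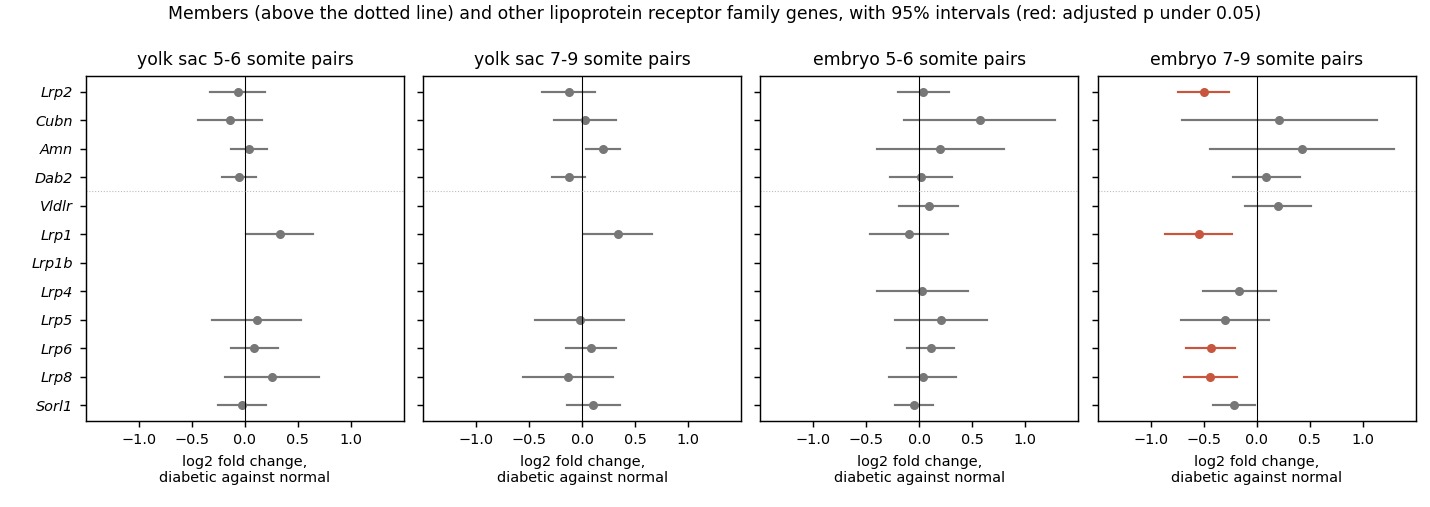
Log2 differences of diabetic from normal pregnancies with 95% intervals for the members and other lipoprotein receptor genes tested, a panel for each tissue and stage, with red marking an edgeR adjusted p under 0.05. No member is red in either yolk sac panel, and Lrp2 is red in embryos at 7–9 somite pairs (-0.50).

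In embryos at 5–6 somite pairs no member was called, with Lrp2 at 0.04, Cubn at 0.57 (-0.14 to 1.28), Amn at 0.20 and Dab2 at 0.01, and edgeR called 1.46% of all genes tested. Signs changed when single litters were left out. Without D28M53 Cubn was at -0.23, Amn at -0.50 and Dab2 at -0.25. Dab2 was also below 0 without D28M02 (-0.0190), N24M21 (-0.00432), N28M06 (-0.0276) or N28M22 (-0.0276). Lrp2 was below 0 without D28M37 (-0.0192) or N28M05 (-0.0116). At this stage the litter as a random block called 4 of 11004 genes, and counts summed per litter 0 of 11706. At 7–9 somite pairs Lrp2 was lower in embryos of diabetic pregnancies, at 95.6 ± 26.9 against 136 ± 26.95 normalized counts (SD, n = 16 each). In 15 of 16 of them it lay below the normal median, with overlapping ranges. The log2 difference was -0.50 (SE 0.12, interval -0.74 to -0.26, edgeR adjusted p = 0.0092), or 1.41-fold lower, and 9.09% of all genes tested were called, 3.89% as lowered. Cubn (0.21), Amn (0.43) and Dab2 (0.09) were not called. By litter means Lrp2 differed by -0.59, with all 6 diabetic litters below the normal median (exact permutation test over 1716 splits, p = 0.000583, unadjusted for 16 tests). The call held without each of the 13 litters in turn, at -0.70 to -0.43, and with the litter as a random block (adjusted p = 0.027), but was lost when counts were summed per litter (-0.56, edgeR adjusted p = 0.0677). Over all genes the litter block called 314 of 10628 and the litter sums 8 of 12064, against 966 of 10628 in the main fit.

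The difference of Lrp2 in yolk sac minus that in embryo at 7–9 somite pairs was 0.38, which was not past the threshold (interaction, edgeR adjusted p = 0.251, with 0.389% of genes called). Lrp2 was therefore called in embryo and not in yolk sac, but the effects were not shown to differ between the tissues. At 5–6 somite pairs the same test called no member and 0% of genes (895 at an unadjusted p under 0.05, and 0 with limma voom and the litter as a random block). Some other lipoprotein receptor genes were lower in the same embryos. Of the 7 tested, 0 were raised and 3 lowered, with a median of -0.30 against -0.01 over all genes. These were the endocytic receptor Lrp1 (-0.55), Lrp6, a co-receptor for Wnt ligands (-0.43), and, named after its value was seen, Lrp8 (-0.44). Markers of the neuroepithelium, a site of Lrp2 expression in the embryo, had 0 of 5 called and a median difference of -0.20. Sox3 (-0.48) and Sox1 (-0.36), named after their values were seen, had the largest negative values, and neither was called. The summed level of the 5 markers was 997–1797 normalized counts with a median of 1365 in normal and 789–1865 with a median of 1166 in diabetic pregnancies, and no marker was at 0 throughout a group. The part of these markers in the difference of Lrp2 was not tested.

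Among yolk sacs, Lrp2 and Cubn varied together in some groups, most closely at 5–6 somite pairs. Pearson's r of their log2 levels was 0.84 in normal (rho 0.78, adjusted permutation p = 0.00228) and 0.82 in diabetic pregnancies (rho 0.77, 0.00228) at 5–6 somite pairs, and 0.67 in normal pregnancies at 7–9 (rho 0.61, 0.0193), with adjustment over 24 relations. In diabetic pregnancies at 7–9 somite pairs it was 0.33 (rho 0.30, adjusted permutation p = 0.384). Without the 2 yolk sacs farthest from the median of Lrp2 these values became 0.68, 0.51, 0.55 and 0.10. Within litters, as deviations from litter means, they were 0.91, 0.80, 0.25 and 0.30. Whether r differed between the groups was not tested.

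Amn, though the obligate partner of cubilin, gave no relation with either receptor that passed. Its r with Lrp2 was 0.15, -0.02, -0.07 and 0.23 in the 4 groups (0.45 in the last without the 2 farthest yolk sacs), and with Cubn -0.10, -0.17, -0.42 and 0.14. Dab2 followed Amn in diabetic pregnancies at 5–6 somite pairs (r 0.79, adjusted permutation p = 0.00328), where rho was 0.61 (adjusted permutation p = 0.0800) and r within litters 0.29. It followed Cubn (r 0.66) and Lrp2 (r 0.61) in normal pregnancies at 5–6 somite pairs, and Cubn in diabetic pregnancies at 7–9 (r 0.60, adjusted permutation p = 0.0468), but by rho only the 2 relations of Lrp2 with Cubn at 5–6 somite pairs passed. All levels of a library share its size factor. Over the 66 yolk sacs r with the log2 total count was between -0.19 (Lrp2) and 0.21 (Amn), and with the share of mitochondrial counts -0.16 for Lrp2, -0.18 for Cubn, -0.45 for Amn and -0.37 for Dab2.

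**Figure D5:**
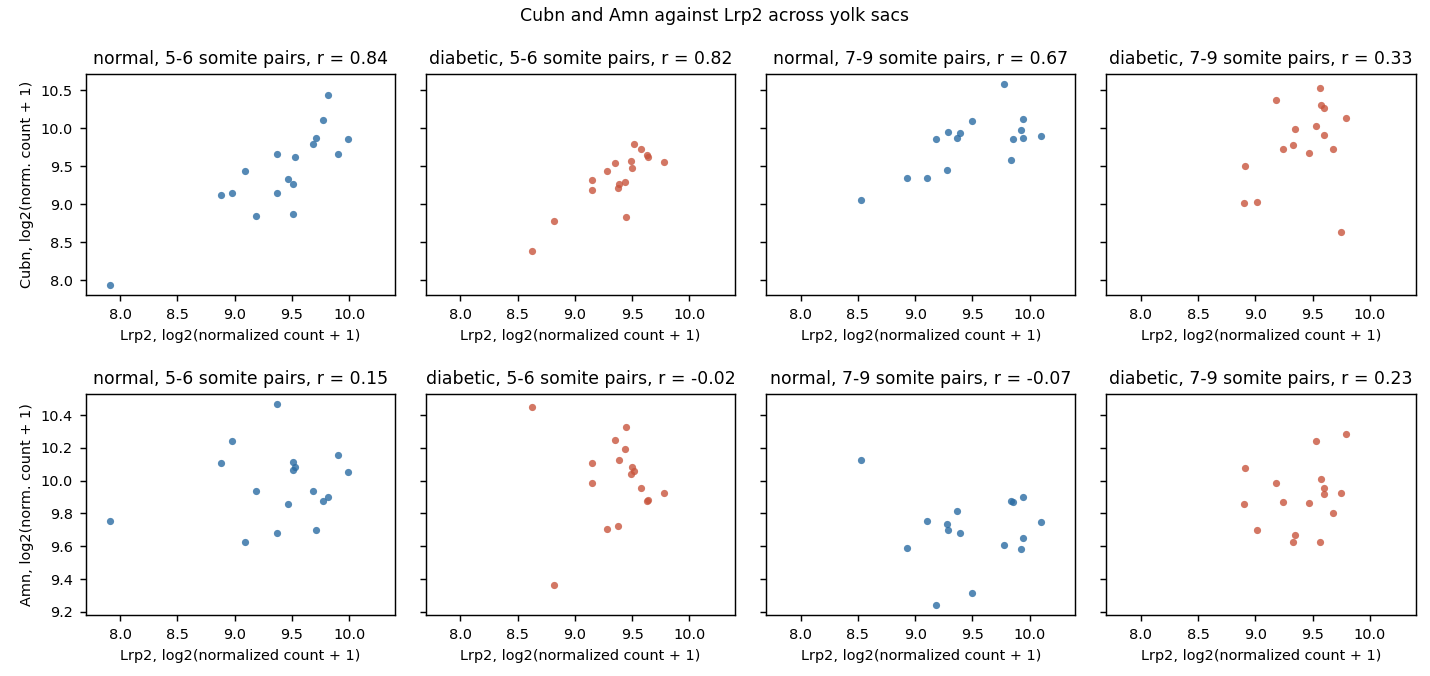
Log2 levels of Cubn (upper panels) and Amn (lower panels) against those of Lrp2 in yolk sacs, with 1 point per yolk sac and a panel for each maternal condition and stage. Cubn climbs with Lrp2 most closely at 5–6 somite pairs (r 0.84 and 0.82), and r of Amn with Lrp2 is -0.07 to 0.23, with none past the threshold.

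The genes most like each member were sought among 6476 genes whose mean in yolk sac reached 50 normalized counts, by r of deviations from group means over the 66 yolk sacs. For Lrp2 these were Pbrm1 (0.78), Nfat5, Prrc2b, Rcor1 and Sema6a (0.76), with Cubn at rank 31. For Cubn they were Abi2 (0.82), Pxdn, Tpm3-rs7, Tgfbr1 and 4833439L19Rik (0.73), with Lrp2 at rank 14. For Amn they included Gtf2i (0.73), Scly, Cotl1 and 0610040J01Rik (0.70), and for Dab2 Clic6 (0.74), Fam84b, Slc13a4, Glul and Herpud1 (0.63). No gene was on the lists of 2 members. Within a conceptus, r of the deviation in embryo with that in yolk sac was -0.02 for Lrp2, -0.13 for Cubn, -0.18 for Amn and -0.15 for Dab2 over 66 concepti, which is a description with no test.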

How the data were processed

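RNA of the embryo and the visceral yolk sac of 66 concepti was sequenced from the 3′ end (QuantSeq 3′ FWD), each molecule marked by a unique molecular identifier. The authors aligned reads with STAR, collapsed them by identifier and counted them with HTSeq, and the labels name mm10. Versions and the strand setting are not given in the sources used here. The values deposited by the authors are counts of molecules per gene, with no normalization or filter, and collapsed identifiers limit the effect of amplification on them. Of 26051 genes without a symbol, 25646 were given one from GENCODE M21. The stage of a yolk sac is the somite number in the labels of its conceptus. Of 136 libraries, 4 batch-control duplicates were left out of the main tests.

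Groups of 1 tissue, stage and maternal condition were compared with edgeR 4.0.16 (quasi-likelihood test, TMM, filterByExpr with a minimum count of 10) under R 4.3.3, with Benjamini-Hochberg adjustment over all genes tested and 0.05 as the threshold. The edgeR steps were also run on simulated counts drawn with no litter effect, so that run cannot show what shared litters do to the calls. Normalized counts are counts divided by DESeq2 1.42.0 size factors over the 132 libraries, analysed as log2 with a pseudocount of 1. Exact permutation tests ran over litters or concepti and correlations used 100000 resamples. Diabetic and normal concepti share no dam and cannot be paired. Embryo and yolk sac are paired by conceptus, and deviations of a member correlated at -0.18 to -0.02 between them. Genes named are the members, up to 4 genes of each pathway list by mean level, and the 5 genes most like each member. Lrp8, Sox1, Sox3 and the decidua markers were named after their values were seen, and Plac1 as the sole trophoblast marker tested. A gene of the pathway lists and a gene most like Amn are not reported here, and the list counts leave out the former. The members, the lists and the tests were chosen with earlier results of these data known. Alternatives were DESeq2's test, its size factors within edgeR, no filter, litter as a random block (limma 3.58.1), counts summed per litter, covariates, a slope on somite number, a pseudocount of 5, and leaving out each litter. Not every alternative was run for every result, and interactions had only the size factors within edgeR and the litter block. Leaving out the 2 concepti of discordant sex and putting duplicates in place of originals were chosen after seeing the data.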

Additional observations from a re-analysis of the deposited data

Results flagged for a closer look

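For Lrp2 a test of the difference between effects passed the threshold in 2 fits. Both fits hold the same embryos of diabetic pregnancies, so they are not separate evidence. The stage difference of Lrp2 in embryos was lower in diabetic than in normal pregnancies by 0.52 on the log2 scale (interaction -0.52, edgeR adjusted p = 0.0433), and within diabetic pregnancies the stage difference in yolk sac exceeded that in embryo by 0.58 (edgeR adjusted p = 0.0342). In embryos of diabetic pregnancies the mean of Lrp2 was 153 normalized counts with 5 somite pairs and already 105 with 6.

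Among the 4 duplicate libraries left out of the comparisons, that of embryo D24M15G stood apart from its original. On the log2 scale of normalized counts plus 1 it was lower by 2.06 for Cubn (-2.06), by 1.11 for Amn (-1.11) and by 0.91 for Dab2 (-0.91), against a difference of 0.07 for Lrp2. The other 3 duplicates differed from their originals by at most 0.32, 0.31 and 0.07 for these 3 genes. In the same library all 8 visceral endoderm markers were lower than in the original.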

How the results depend on the processing

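Of 1064 values for 152 results under alternatives, 968 kept their direction and their side of the threshold, 29 no longer passed, 1 newly passed and 66 changed sign, all 66 for differences not called to begin with. The difference between tissues kept its call for every member and group under every alternative run, and the conceptus as a replicate block changed no call (16 of 16 fits, Lrp2 at 2.30 to 2.89). The cause of a change was not tested unless the alternative itself shows it.

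For the stage difference, the slope per somite pair, which is on another scale, gave no call for Amn in normal embryos (-0.26) and yolk sacs (-0.0857) or Dab2 in normal embryos (-0.12), and -0.00213 for Lrp2 in diabetic yolk sacs. With no filter Amn in normal yolk sacs was at -0.27 and not called, and Dab2 at 0.00296. Cubn in normal embryos was at 0.00933 without the concepti of discordant sex and 0.00596 with duplicates, and Lrp2 in normal embryos at 0.0515 with the litter block.

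For diabetic against normal embryos, the litter block gave -0.32 for Amn and -0.12 for Dab2 at 5–6 somite pairs and -0.0755 for Amn and -0.17 for Cubn at 7–9. Counts summed per litter gave -0.12 and -0.11 for Amn and Dab2 at 5–6 and -0.56 for Lrp2 at 7–9 (no longer called). Visceral endoderm level as a covariate gave -0.12 and -0.0324 for Amn and Dab2 at 5–6, and -0.22, -0.52 and -0.0817 for Amn, Cubn and Dab2 at 7–9, with Lrp2 still called (-0.48, edgeR adjusted p = 0.0108). At 5–6, sex and somite number as covariates gave -0.0413 for Dab2 and -0.0453 for Lrp2, the title number -0.0198 for Dab2, and no filter -0.00768 for Dab2. At 7–9, the title number gave -0.30 for Cubn, and duplicates gave -0.14 for Cubn and -0.000400 for Dab2. For Cubn in yolk sac at 7–9 the litter block, litter sums, sex and somite number, and title number gave -0.0517, -0.0594, -0.0196 and -0.0942.

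The litter block turned the interactions stage by diabetes in yolk sac for Lrp2 (0.0105), tissue by diabetes at 5–6 for Amn (0.24) and Dab2 (0.0118), and at 7–9 for Amn (0.30) and Cubn (0.24). In the tissue ratio, Amn minus Cubn no longer passed in diabetic pregnancies at 5–6 with a pseudocount of 5 (-0.16) and at 7–9 by litter means (-0.32). By litter means the order no longer passed for Amn over Cubn in yolk sac (0.42, normal 5–6) and embryo (0.57 in normal and 0.57 in diabetic, 7–9), nor in diabetic pregnancies at 7–9 for Dab2 over Amn (1.84) and Cubn over Lrp2 (0.21) in yolk sac and Dab2 over Lrp2 (1.31) and Lrp2 over Amn (2.16) in embryo. With 6 litters the smallest exact p is 0.0312, which limits these tests.

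Leaving out each litter in turn, the stage difference ranged in embryos of diabetic pregnancies from -0.74 to 0.13 for Amn, -0.65 to 0.46 for Cubn and -0.37 to 0.0311 for Dab2, and in normal ones from -1.20 to -0.74 for Amn, -0.25 to 0.14 for Cubn, -0.38 to -0.26 for Dab2 and -0.0887 to 0.0181 for Lrp2. In yolk sac it ranged from -0.33 to -0.22 for Amn and -0.0372 to 0.0152 for Dab2 in normal, and from -0.19 to -0.0281 for Amn, 0.18 to 0.61 for Cubn and -0.0532 to 0.12 for Lrp2 in diabetic pregnancies. The diabetic difference in embryos ranged at 5–6 from -0.50 to 0.38 for Amn, -0.23 to 0.76 for Cubn, -0.25 to 0.12 for Dab2 and -0.0192 to 0.10 for Lrp2, and at 7–9 from -0.0901 to 0.49 for Cubn and -0.0019 to 0.17 for Dab2. In yolk sac it ranged from -0.18 to 0.0068 for Lrp2 at 5–6 and -0.25 to 0.16 for Cubn at 7–9.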

Other observations

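Maternal blood glucose was set against the mean deviation of each member in the yolk sacs of 11 diabetic litters with a glucose value. For Lrp2 Pearson's r was 0.57 (permutation p = 0.0465, adjusted over 4 relations 0.186) and Spearman's rho 0.32, and r was 0.39 without the 2 litters farthest from the median glucose. For Cubn, Amn and Dab2 r was -0.02, 0.21 and 0.14 (rho -0.36, 0.02 and 0.14), and no relation passed after adjustment. Without the 2 farthest litters r became -0.61 for Cubn, 0.20 for Amn and 0.04 for Dab2, values that were not tested.

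Clic6, an intracellular chloride channel protein, and Slc13a4, a sulfate transporter, were among the 5 genes most like Dab2 from one yolk sac to the next, with means of 1249 and 938 normalized counts in yolk sac and 82.5 and 31.5 in embryos. Glul, glutamine synthetase, another of the 5, was more abundant and stood less far apart, with 1473 and 459.6. The gene most like Lrp2, Pbrm1, had 1043 in yolk sac and 1190.2 in embryos, and that most like Cubn, Abi2, had 329 and 351. These are descriptions of genes picked for their likeness, with no test.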
